A study of Saccharomyces cerevisiae with 28 samples.

Results

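The genes described here are RPN4, which encodes the transcription factor that drives proteasome genes, and the subunit genes of the yeast proteasome. They were chosen as all ORFs of the authors' smaller table whose standard name is RPN, RPT, PRE or PUP followed by a number, and 33 of 6692 ORFs met that rule. Of these, 31 encode subunits: 6 of the alpha ring and 7 of the beta ring of the core particle, 10 of the base and 8 of the lid of the regulatory particle. The other members are RPN4 itself and RPN14, which encodes an assembly chaperone of the base. The subunit genes SCL1 (alpha ring) and SEM1 (lid) carry other kinds of name and are therefore not members.

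Poly(A)+ RNA was sequenced from 28 libraries in 14 groups of budding yeast, all in the haploid BY4741 background, in a study of copper use by cells with a changed histone H3. The H3H113N allele puts asparagine in place of a histidine of histone H3, and each H3H113N strain was set against a parent that differs in that allele alone by its label. In rich glucose medium (YPD) the groups were H3H113N and WT, and the H3H113N dCtr1 and dCtr1 strains, which lack the copper transporter gene CTR1. In rich ethanol and glycerol medium (YPEG), which requires respiration, the groups were H3H113N and WT. In synthetic complete medium (SC) they were H3H113N and WT with 3 libraries each, and the H3H113N dCcs1 and dCcs1 strains, which lack CCS1, the gene of the copper chaperone of superoxide dismutase. In SC without lysine (SC-lys) the H3H113N dCcs1 and dCcs1 strains had 2 libraries each, and with 75 µM CuSO4 added they had 1 each. All other groups had 2 libraries. Per the labels the 4 SC-lys libraries and the H3H113N dCcs1 copper library came from very slow growth and all others from exponential growth, and culture times were not the same for all strains. The labels do not say how many clones of a strain were used, nor that libraries came from separate cultures, so p-values measure the spread between libraries only.

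The proteasome degrades proteins that carry ubiquitin. Its core particle is a barrel of alpha and beta rings with the protease sites inside, on beta subunits, and its regulatory particle recognises, unfolds and threads in the substrate. In budding yeast the genes of both particles share a promoter element, the proteasome-associated control element (PACE), which the Rpn4 protein binds. Rpn4 is itself a short-lived substrate of the proteasome, so that less proteasome activity leaves more Rpn4 and more transcription of subunit genes. RPN4 transcription is known to respond to heat shock, oxidative stress and drug stress through Hsf1, Yap1, Pdr1 and Pdr3.

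The promoter windows, 250 bases before to 50 after the start of each ORF, were read from the R64 assembly and searched on both strands. PACE (GGTGGCAAA) stood in 26 of 33 member windows (78.8%), against 72 of 6020 windows of all annotated genes (1.2%). Its core (GTGGCAAA), which every PACE match also contains, stood in 29 of 33 member windows (87.9%), against 144 of all (2.39%). PRE5, PUP1 and RPN8 had the core alone, and RPN4, RPN10, RPN13 and RPN14 had neither form in this window. The following 8 sites are shown because the results turn on these genes, with the motif in capitals, each on the strand on which the motif reads forward.
PRE1 (chrV:177681-177713, + strand): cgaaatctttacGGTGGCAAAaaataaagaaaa
PUP3 (chrV:349509-349541, - strand): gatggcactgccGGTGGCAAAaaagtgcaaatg
RPN3 (chrV:196841-196873, - strand): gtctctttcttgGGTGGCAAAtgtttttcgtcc
PRE7 (chrII:141148-141180, + strand): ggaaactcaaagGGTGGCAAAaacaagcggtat
PRE9 (chrVII:761221-761253, + strand): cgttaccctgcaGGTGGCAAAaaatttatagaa
PUP1 (chrXV:631889-631920, - strand): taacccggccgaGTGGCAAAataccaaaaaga
RPT2 (chrIV:437904-437936, + strand): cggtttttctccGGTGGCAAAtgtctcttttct
RPT3 (chrIV:1261493-1261525, + strand): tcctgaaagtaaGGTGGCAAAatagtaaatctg
The flanking bases differed between the genes while the capitals were shared, with 1 base fewer in PUP1. In PRE9, PUP3 and RPT2, the near edge of the site lay 151, 175 and 123 bases before the start codon.

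The window of RPN4 (YDL020C) is shown whole, because RPN4 is the member with the largest difference between strains on average over the settings, though not in YPD or SC-lys. It lies at chrIV:416659-416958 on the minus strand of R64, and the ORF at 415113 to 416708. The capitals mark the only match within this window to the motifs searched, the heat shock element bound by Hsf1, on the opposite strand.
RPN4: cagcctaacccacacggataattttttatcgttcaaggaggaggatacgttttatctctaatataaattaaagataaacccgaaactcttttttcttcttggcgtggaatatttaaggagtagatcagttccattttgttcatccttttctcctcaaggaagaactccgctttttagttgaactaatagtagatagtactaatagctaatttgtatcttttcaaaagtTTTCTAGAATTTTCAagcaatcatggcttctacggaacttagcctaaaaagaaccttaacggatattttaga
That heat shock element stood in 1 of 33 member windows and in 47 of 6020 windows of all genes (0.781%). The Yap1 motif TTAGTAA, whose reverse complement TTACTAA gives the same matches, stood in the windows of PRE5, RPN7 and RPN8 (9.09% of members and 7.49% of all windows). Of the Pdr1 and Pdr3 motifs, TCCGCGGA stood in the window of RPN11 alone among members (0.216% of all windows) and TCCGTGGA in no member's (0.399% of all). A match describes these letters in this window and does not show that a factor is bound. Bases further upstream were not searched, so sites of Hsf1, Yap1, Pdr1 or Pdr3 there would not show.

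Total counts per library ran from 1168159 to 6738018. In libraries of strains that lack CTR1, 0 to 1 reads were counted on CTR1, against 52 to 9098 where it is present, and CCS1 had 0 to 1 reads where deleted, against 106 to 889. The H3H113N allele cannot be checked from counts. YPD, SC-lys and copper libraries were made with one kit and YPEG and SC libraries with another. YPEG against SC is therefore the only pair of media whose levels were tested against each other. The H3H113N effect in SC-lys was also set against that in SC, across kits. Levels are given as RPKM (reads per kilobase of exon, scaled to the total of counted reads) rescaled with TMM factors, which align the bulk of genes between libraries. Tests are edgeR's quasi-likelihood test on the counts with Benjamini-Hochberg adjustment over 6592 ORFs, and an ORF is called at an adjusted p under 0.05. All 33 members passed the filter, a mean of at least 1 RPKM over the 26 fitted libraries. In RNA from whole cultures, a change in each cell and a change in the mix of cell states cannot be told apart.

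RPN4 was higher in H3H113N than in its parent in all 6 settings that could be tested, and the libraries of the strains did not overlap in any of them. Higher, non-overlapping levels in all 6 settings were found for 129 of 6592 ORFs (1.96%), and RPN4 was the only member among them. Averaged over the 6 settings, RPN4 was 1.91-fold higher in H3H113N (log2 fold change 0.94, SE 0.14, edgeR adjusted p = 5.98e-05). In that average 33.8% of all ORFs were called in either direction, and 18.5% as higher. The call was kept in all 7 other analyses and in all 26 fits that left out 1 library, with log2 fold changes of 0.83 to 1.14.

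**Figure D1:**
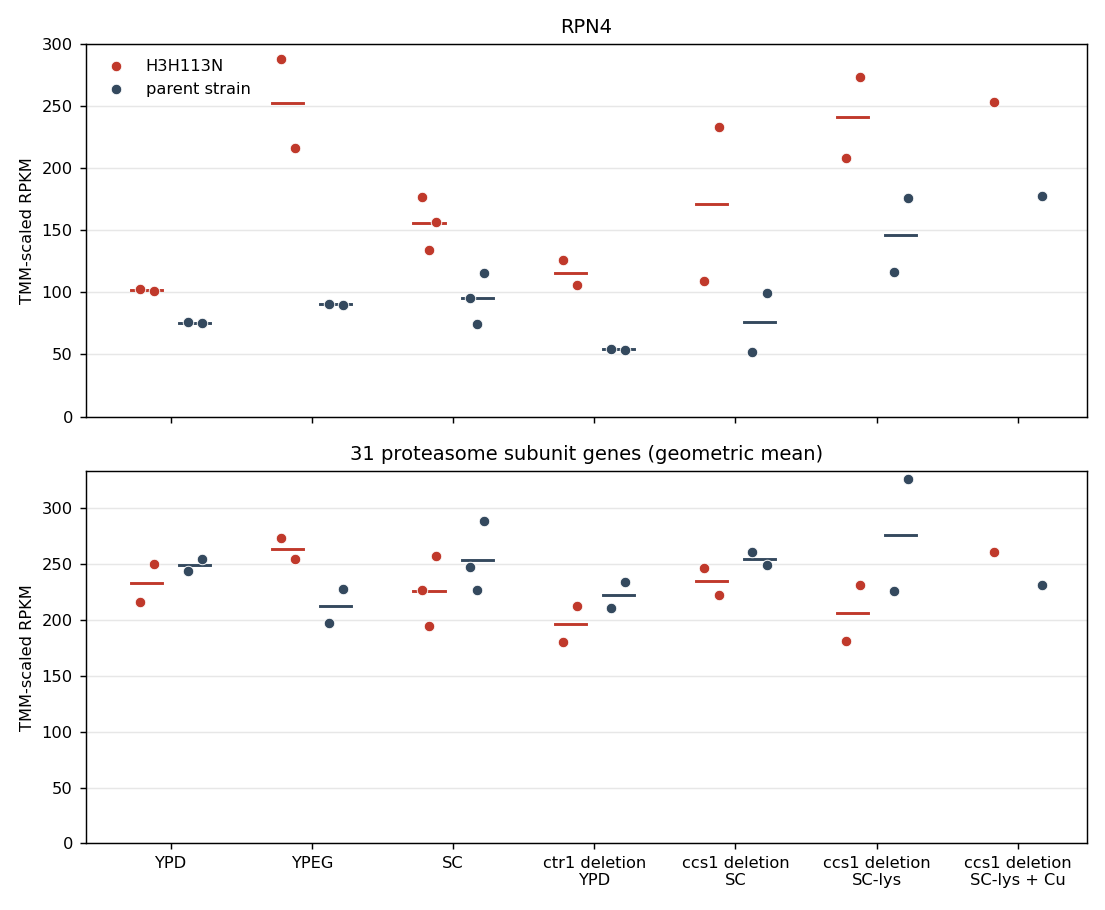
TMM-scaled RPKM of RPN4 (top) and the geometric mean of the 31 subunit genes (bottom) in each of the 28 libraries, with horizontal bars at group means where a group has 2 or 3 libraries. RPN4 lies higher in every H3H113N library than in the libraries of its parent in the same setting, while the subunit genes lie higher in both H3H113N libraries only in YPEG and, with 1 library each, in copper medium.

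The size of the RPN4 difference varied between settings, and it passed the test within a single setting only in YPEG. In YPEG, RPN4 had 288.5 and 216.6 RPKM in H3H113N libraries, against 90.49 and 90.27 RPKM in WT libraries (log2 fold change 1.48, SE 0.35, edgeR adjusted p = 0.0471). That call rests on the scaling and on each library: the adjusted p was 0.0512 with median-ratio size factors and 0.0819 with library totals, and in none of the 4 fits without 1 library was it under the threshold. In SC, RPN4 had 176.8, 134 and 157.1 RPKM in H3H113N, against 95.44, 74.58 and 116 RPKM in WT, so that the lowest H3H113N library stood above the highest WT library (log2 fold change 0.71, SE 0.28, edgeR adjusted p = 0.222).

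In YPD the difference was smaller, with 103 and 100.9 RPKM of RPN4 in H3H113N, against 76.09 and 75.03 RPKM in WT (log2 fold change 0.43, SE 0.34, edgeR adjusted p = 0.670). Without CTR1, RPN4 had 126.5 and 105.7 RPKM in H3H113N dCtr1, against 54.59 and 53.88 RPKM in dCtr1, the group with the lowest mean (log2 fold change 1.10, SE 0.34, edgeR adjusted p = 0.117). Both H3H113N dCtr1 libraries stood just above the H3H113N libraries with CTR1. Without CCS1 in SC, RPN4 had 109.4 and 233.7 RPKM in H3H113N dCcs1, against 51.8 and 99.89 RPKM in dCcs1, and both groups spread widely (log2 fold change 1.18, SE 0.35, edgeR adjusted p = 0.107). In SC-lys it had 208.5 and 273.7 RPKM in H3H113N dCcs1, against 116.5 and 176.5 RPKM in dCcs1 (log2 fold change 0.72, SE 0.34, edgeR adjusted p = 0.204).

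Ordered by mean over the groups with 2 or 3 libraries, RPN4 ran from 54.24 ± 0.5 RPKM in dCtr1 in YPD to 252.55 ± 50.84 RPKM in H3H113N in YPEG (SD, n = 2 each). Next above dCtr1 stood WT in YPD (75.56), dCcs1 in SC (75.84), WT in YPEG (90.38) and WT in SC (95.34), and the libraries of both WT groups outside SC lay within the ranges of both SC groups. H3H113N in YPD (101.95) and H3H113N dCtr1 in YPD (116.1) followed, with ranges that did not overlap each other but lay within or across that of WT in SC. Then came dCcs1 in SC-lys (146.5), H3H113N in SC (155.97) and H3H113N dCcs1 in SC (171.55), which all overlapped. The dCcs1 copper library had 177.8 RPKM. H3H113N dCcs1 in SC-lys, at 241.1 ± 46.1 RPKM (SD, n = 2), overlapped the YPEG group at the top, and the H3H113N dCcs1 copper library had 253.8 RPKM. Levels of YPD and SC-lys libraries stand beside those of YPEG and SC across 2 library kits, so their order across kits is a description.

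The subunit genes did not show the pattern of RPN4. The 31 subunit genes had a median log2 fold change in H3H113N against its parent of -0.15 in YPD, -0.18 in SC, -0.22 without CTR1, -0.12 without CCS1 in SC, -0.46 in SC-lys and 0.30 in YPEG, where the medians of all tested ORFs were between -0.05 and 0.01. Their geometric mean was 215.7 and 250.3 RPKM in H3H113N in YPD, against 243.3 and 254.1 RPKM in WT. In YPEG it was 273.3 and 254.3 RPKM in H3H113N, against 197.3 and 227.7 RPKM in WT, the only tested setting in which both H3H113N libraries lay above both parent libraries. In SC it was 226.6, 194.9 and 256.8 RPKM in H3H113N, against 246.9, 226.3 and 288.1 RPKM in WT, lower in H3H113N in each of the 3 same-numbered pairs, though the groups overlapped. In SC-lys it was 181 and 231.2 RPKM in H3H113N dCcs1, against 225.6 and 326 RPKM in dCcs1.

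The sign of the members' median depended on the analysis in YPD, in SC and without CCS1 in SC (-0.13 to 0.07). It was kept in YPEG (0.26 to 0.33), in SC-lys (-0.47 to -0.15) and without CTR1 (-0.24 to -0.02), in the analyses that use all libraries. Scaled to library totals in place of TMM, the median of all tested ORFs moved to 0.22 in YPD, 0.18 in SC and 0.30 in SC-lys, and the members' median to 0.06, 0.05 and -0.15. Relative to the median of all ORFs, the members lay between 0.13 and 0.19 lower in YPD and between 0.39 and 0.48 lower in SC-lys, and between 0.29 and 0.31 higher in YPEG, in the analyses that use all libraries. Single libraries moved these medians more. In YPD the members' median was -0.03 without H3H113N-YPD replicate 1 and -0.29 without H3H113N-YPD replicate 2. In SC-lys it was -0.19 without dCCs1-SC-lys replicate 2 and -0.65 without dCCs1-SC-lys replicate 1, and in YPEG it lay between 0.21 and 0.41.

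Few members passed the test within a setting. In YPD none of 33 was called by edgeR where 1.24% of all ORFs were (1.05% as higher), and none had an unadjusted p under 0.05 (12.6% of all ORFs), nor did DESeq2 call any. In YPEG 2 of 33 were called, RPN4 and RPN3, both higher, where 1.03% of all ORFs were called and 0.925% as higher; 5 members had an unadjusted p under 0.05, against 14.7% of all ORFs. In SC, where 1.59% of all ORFs were called, 0 members were called by edgeR or DESeq2, and 3 had an unadjusted p under 0.05, against 15.2% of all ORFs. Without CTR1 no member was called by edgeR (2.18% of all ORFs, 1.81% as higher and 0.379% as lower), 6 had an unadjusted p under 0.05, against 12.7% of all ORFs, and DESeq2 called 1, with 293 ORFs in all. Without CCS1 in SC no member was called by edgeR (1.24% of all ORFs, 1.02% as higher), 3 had an unadjusted p under 0.05, against 13.5% of all ORFs, and DESeq2 called 1, with 236 ORFs in all. In SC-lys 2 of 33 were called, both lower, where 10.7% of all ORFs were called, 5.16% as higher and 5.57% as lower.

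**Figure D2:**
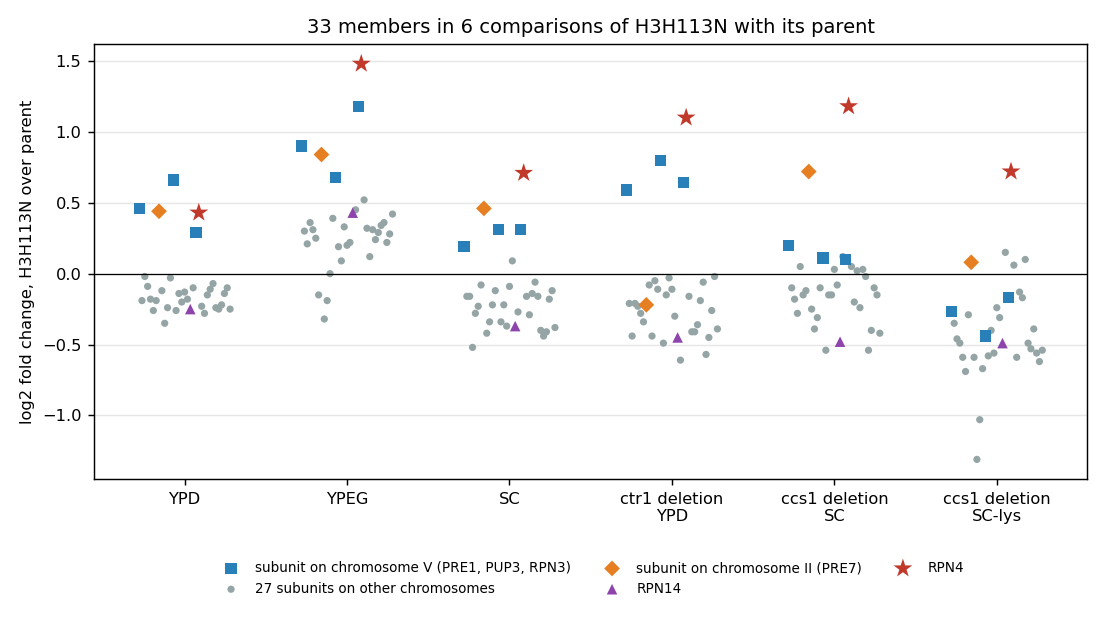
Log2 fold change (vertical axis) of each of the 33 members in H3H113N over its parent, in the 6 tested settings (horizontal axis), from edgeR with TMM scaling. RPN4 (stars) is above 0 in all 6, at 0.43 to 1.48. The 27 subunit genes outside chromosomes II and V (circles) are all below 0 in YPD and without CTR1 and mostly above 0 in YPEG, while the 3 genes on chromosome V (squares) and PRE7 on chromosome II (diamonds) stand apart from them in several settings.

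Among beta ring genes, PRE1, PRE7 and PUP3 had positive values in most settings, and so had the lid gene RPN3. On average over the 6 settings, 5 members were called higher, RPN4 with these 4, and 3 were called lower, which is 8 of 33 members, against 33.8% of all ORFs. The log2 fold change of RPN3 averaged 0.39 (SE 0.10, edgeR adjusted p = 0.00716), that of PRE7 0.39 (SE 0.10, adjusted p = 0.00565), that of PRE1 0.35 (SE 0.10, adjusted p = 0.0120) and that of PUP3 0.35 (SE 0.13, adjusted p = 0.049999, at the threshold). PUP3 kept its call in 6 of 26 fits without 1 library. PRE1, PRE7 and PUP3 encode beta subunits without a protease site of their own.

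These 4 genes are the members on chromosomes II (PRE7) and V (PRE1, PUP3 and RPN3), which stood higher as a whole in many H3H113N libraries. The shift of a chromosome is the median, over its ORFs, of the log2 difference between a library and the mean of the libraries without H3H113N in the same medium. On average chromosome II stood 0.44 higher in H3H113N in YPD, 0.32 in YPEG and 0.49 in SC, 0.11 in H3H113N dCtr1, and 0.75 and 0.76 in H3H113N dCcs1 in SC and SC-lys. Chromosome V stood 0.53 higher in H3H113N in YPD, 0.54 in YPEG and 0.47 in SC, and 0.73 in H3H113N dCtr1, but 0.07 in both H3H113N dCcs1 groups. The libraries without H3H113N had shifts of -0.03 to 0.05 on these chromosomes, but they form the reference mean themselves, so a shift shared by all of them could not show.

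Without CTR1, where chromosome V was high and II was not, the log2 fold changes were 0.59 for PRE1, 0.80 for PUP3 and 0.64 for RPN3, against -0.22 for PRE7. Without CCS1 in SC, where II was high and V was not, they were 0.20, 0.11 and 0.10 for the same 3 genes, against 0.72 for PRE7. PRE7 there had 656.9 and 507 RPKM in H3H113N dCcs1, against 366.2 and 339.1 RPKM in dCcs1. In SC-lys, where the chromosomes stood as in SC without CCS1, PRE7 was at 0.08 only (-0.69 with chromosomes centred), and PRE1, PUP3 and RPN3 were at -0.27, -0.44 and -0.17. In YPEG the values were larger than the chromosome shifts for PRE7 (0.84), PRE1 (0.90), PUP3 (0.68) and RPN3 (1.18). With chromosomes centred, the YPEG values were 0.53 for PRE7, 0.36 for PRE1, 0.14 for PUP3 and 0.63 for RPN3. None of these was called (edgeR adjusted p between 0.299 and 0.862). Whether the differences of these genes depart from those of their chromosomes was not tested. In SC, chromosome V stood 0.145 higher in H3H113N replicate 1 but 0.585 and 0.668 higher in replicates 2 and 3, and PUP3 had 365.7, 493.4 and 806.6 RPKM in these libraries in that order, against 319.7, 489.4 and 537.7 RPKM in WT.

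With each chromosome centred in each library, the average log2 fold changes of PRE7, PRE1, PUP3 and RPN3 were -0.09, -0.05, -0.04 and -0.01, and none was called (edgeR adjusted p between 0.540 and 0.984). RPN4 lies on chromosome IV, whose shifts were small (-0.177 to -0.005 in the fitted H3H113N libraries), and its centred average was 1.01 (edgeR adjusted p = 2.6e-05). Of all tested ORFs on chromosomes II and V, 428 of 785 were called higher on average and 15 lower, against 793 higher and 989 lower of 5807 on the other chromosomes. The copy number of the chromosomes was not measured in these RNA libraries, and its part in the values of these 4 genes was not tested.

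**Figure D3:**
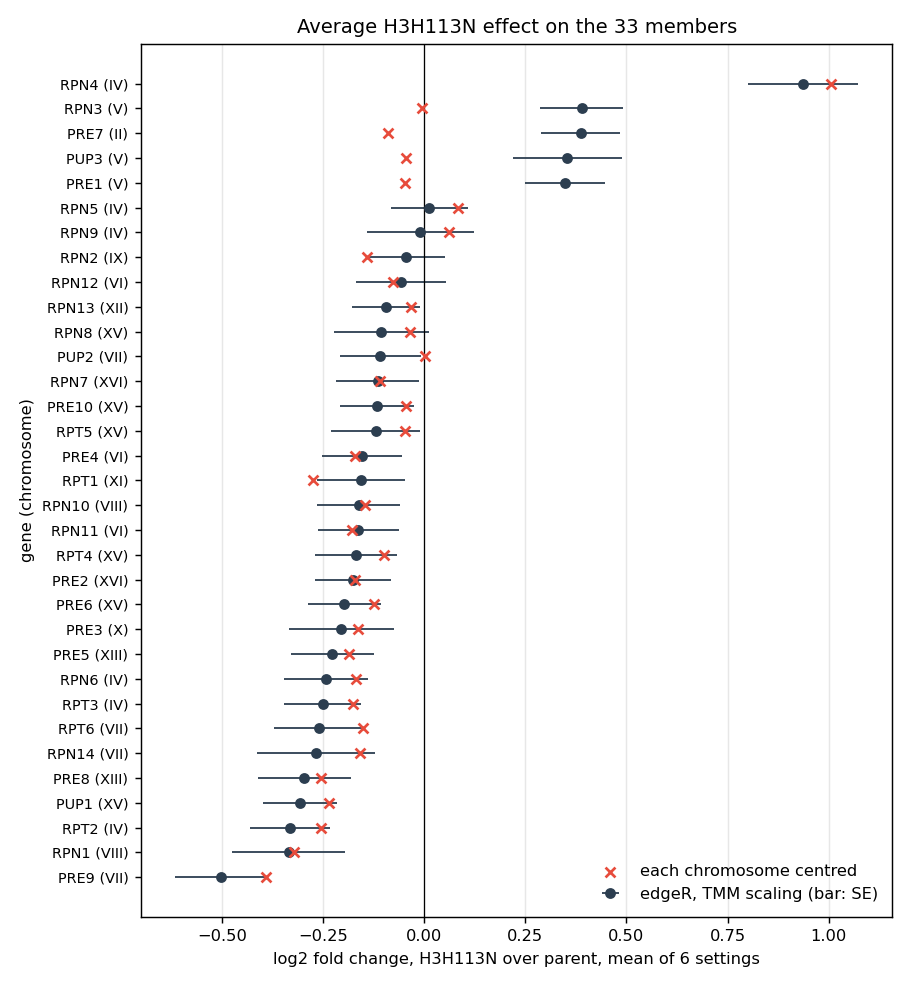
Log2 fold change of the 33 members in H3H113N over its parent, averaged over 6 settings (horizontal axis), with genes ordered by value and their chromosomes in brackets. Dark circles with bars are edgeR values with SE and red crosses are values with each chromosome centred: the 4 genes on chromosomes II and V move from about 0.35 to 0.39 to values between -0.09 and -0.01, and RPN4 stays at 0.94 and 1.01.

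The 27 subunit genes on the other chromosomes had values below 0 in most settings. Among them, RPN2 (chromosome IX) and RPT1 (XI) also lie on chromosomes that stood higher in H3H113N dCcs1 than in dCcs1 in SC. Centring each chromosome moved their log2 fold changes there from 0.125 to -0.162 and from -0.019 to -0.375. Their H3H113N effect in SC-lys minus that in SC moved less, from 0.021 to -0.024 for RPN2 and from -0.475 to -0.365 for RPT1. Both chromosomes therefore stood higher in SC-lys too, where RPN2 is among the positive values. In YPD and without CTR1 all 27 had negative log2 fold changes, with medians of -0.18 and -0.26, in SC 26 of 27 (median -0.22), without CCS1 in SC 21 of 27 (-0.15), and in SC-lys 24 of 27 (-0.49). In YPEG 23 of 27 were positive (median 0.28). The medians of all tested ORFs were between -0.05 and 0.01 in the 6 settings, while chromosomes IV and XV had mean shifts of -0.12 to -0.03 in H3H113N groups. In some settings the signs depend on the scaling. Outside the fits without 1 library, the median of the 33 members ran from -0.18 to 0.06 in YPD. Without CTR1 it ran from -0.24 to -0.02 and stayed negative. Called one by one, none of the 27 was higher in any setting or on average. PRE6, PRE8, PRE9 and PUP1 were the 4 members with a negative value in all 6 settings, a pattern of 17.4% of all ORFs.

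On average over the 6 settings the alpha ring gene PRE9 fell by 0.50 on the log2 scale (SE 0.11, edgeR adjusted p = 0.00249), the base ATPase gene RPT2 fell by 0.33 (SE 0.10, adjusted p = 0.0153) and the beta ring gene PUP1 fell by 0.31 (SE 0.09, adjusted p = 0.0141). In that average 15.2% of all ORFs were called lower. With chromosomes centred PRE9 stayed called (adjusted p = 0.0146), while RPT2 and PUP1 did not (0.0669 and 0.0621). Scaled to library totals PRE9 was the only one of the 3 called, and with limma none was.

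The largest called decreases within a setting were in SC-lys. PRE9, the alpha subunit whose gene yeast can lose and survive, had 98.96 and 128.4 RPKM in H3H113N dCcs1, against 178.5 and 386.4 RPKM in dCcs1 (log2 fold change -1.31, SE 0.29, edgeR adjusted p = 0.00762). The dCcs1 libraries differed by more than the strains did at their nearest values. PUP1, the beta subunit with the trypsin-like protease site, had 92.86 and 123.5 RPKM in H3H113N dCcs1, against 184.7 and 257.2 RPKM in dCcs1 (log2 fold change -1.03, SE 0.23, edgeR adjusted p = 0.00835). Neither was called without dCCs1-SC-lys replicate 2 or without H3H113N-dCCs1-SC-lys replicate 1, with log2 fold changes of -0.64 and -1.14 for PRE9 and of -0.77 and -0.84 for PUP1. Fitted on the compared groups alone neither was called, nor was PRE9 with limma. Centred by chromosome, both stayed called (adjusted p = 0.0175 for PRE9 and 0.0223 for PUP1).

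Other alpha ring genes in SC-lys had values in the same direction that were not called, such as PRE5 with a log2 fold change of -0.69 (edgeR adjusted p = 0.0993) and PUP2 with -0.67 (adjusted p = 0.106). In that setting 11 of 33 members had an unadjusted p under 0.05, against 24% of all ORFs. The RNA of these libraries came from cultures that grew very slowly in both strains. The difference between the H3H113N effect in SC-lys and in SC was -0.92 for PRE9 and -0.72 for PUP1. It was called for no member (edgeR and DESeq2), where 0.0455% of ORFs were called. Of the members 2, these same genes, had an unadjusted p under 0.05, against 4.88% of all ORFs. SC-lys and SC libraries differ in kit, starting density and growth, so that the medium cannot be told apart from these.

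YPEG, in which ethanol and glycerol must be respired, was the setting in which subunit genes and RPN4 both stood higher in H3H113N. RPN3 had 409.9 and 329.7 RPKM in H3H113N, against 159.1 and 168.5 RPKM in WT (log2 fold change 1.18, edgeR adjusted p = 0.0407), and was not called with its chromosome centred (0.63, adjusted p = 0.299) or without any 1 of the 4 libraries. PRE1 had 520.6 and 522.1 RPKM in H3H113N, against 272.5 and 284.9 RPKM in WT (log2 fold change 0.90, adjusted p = 0.108). Of the members on other chromosomes, the lid gene RPN5 had the largest value after RPN4, at 0.52, with 349.1 and 319.7 RPKM in H3H113N, against 226.9 and 238.1 RPKM in WT (adjusted p = 0.324). In YPEG, 23 of 33 members had non-overlapping higher levels in H3H113N, against 30.2% of all ORFs, and 2 had non-overlapping lower ones, against 28.1%.

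The H3H113N effect in YPEG minus that in SC was positive for 32 of 33 members, with a median of 0.48, where the median of all ORFs was -0.01. Of the members 8 had an unadjusted p under 0.05, against 5.35% of all ORFs, but none was called (edgeR and DESeq2; 0.0152% of all ORFs called). The values were 0.86 for RPN3, 0.77 for RPT3 and 0.79 for RPT2 (edgeR adjusted p = 0.929 for each) and 0.77 for RPN4 (adjusted p = 0.949). YPEG and SC also differ in starting density and doublings, per the labels.

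**Figure D4:**
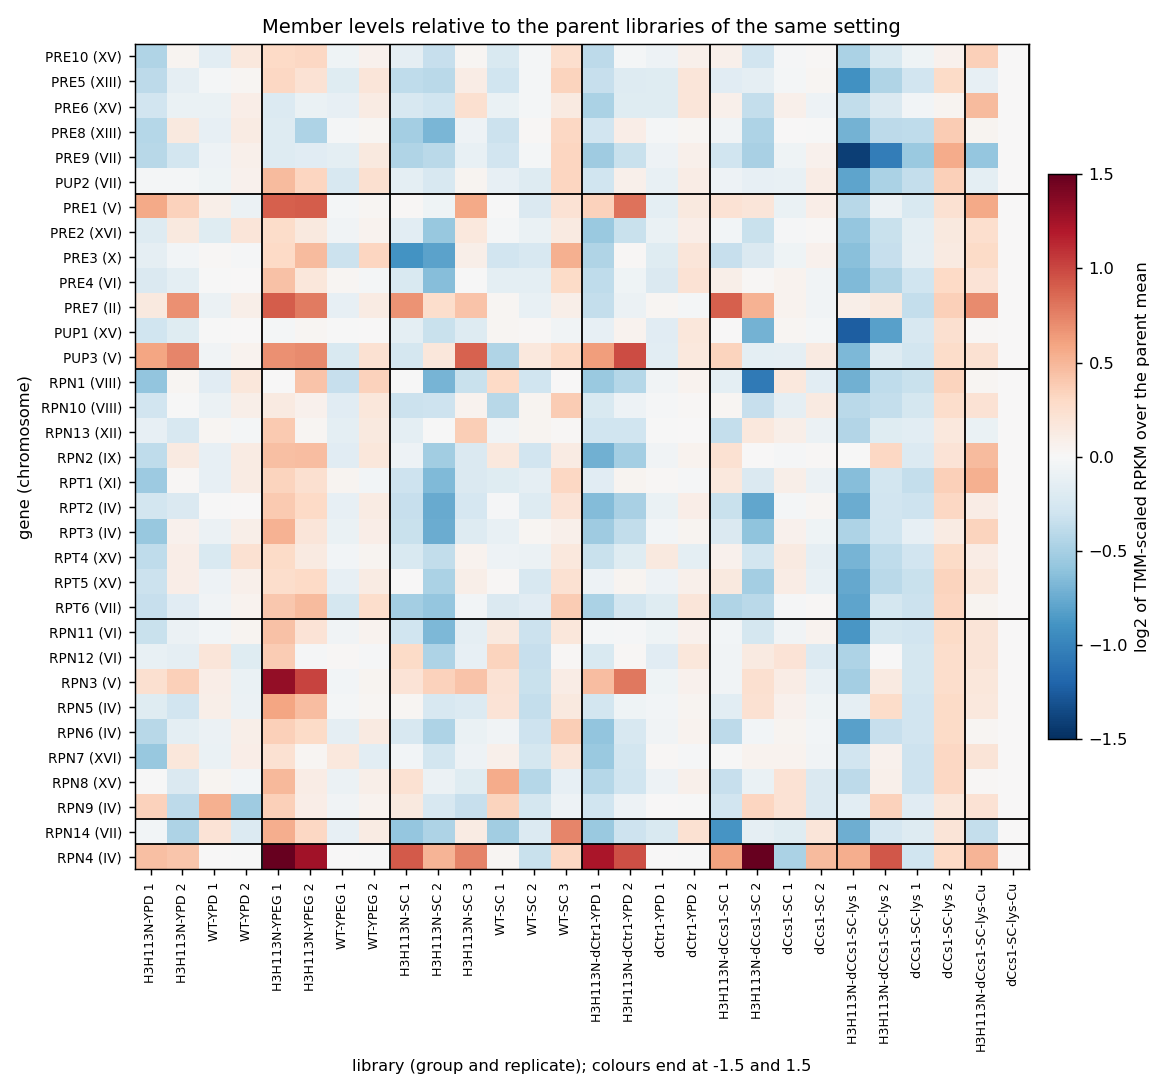
Log2 of the TMM-scaled RPKM of each member (rows, with chromosome) in each library (columns), minus the mean of the parent libraries of the same setting, so that the single dCcs1 copper library is 0 by construction. Rows run from the alpha ring, beta ring, base and lid to RPN14 and RPN4, and each block of columns has the H3H113N libraries left of their parent. RPN4 is above 0 in all H3H113N columns, by amounts that differ between settings and libraries. PRE9 and PUP1 are lowest in SC-lys, and PRE1, PRE7, PUP3 and RPN3 stand out from the rows around them.

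Between media, WT cells had no called member in YPEG against SC (edgeR, with 2 members at an unadjusted p under 0.05, against 25.8% of all ORFs, and 1 of the 960 ORFs that DESeq2 called), where 11.5% of all ORFs were called, 6.75% as higher and 4.72% as lower in YPEG. The members' median was -0.30, against -0.07 for all ORFs, and the base gene RPN13, a ubiquitin receptor, had the smallest p, with 102.6 and 125.7 RPKM in YPEG, against 168, 179.3 and 177.4 RPKM in SC (log2 fold change -0.62, edgeR adjusted p = 0.0526). In H3H113N cells the members' median was 0.27, against -0.05 for all ORFs, and 1 of 33 members was called, where 10.9% of all ORFs were, 6.13% as higher and 4.81% as lower. That member was RPT3, a base ATPase gene, with 315.2 and 249.4 RPKM in YPEG, against 184.3, 138.5 and 202.1 RPKM in SC (log2 fold change 0.69, SE 0.22, edgeR adjusted p = 0.0483). RPT3 was called in 1 of 5 fits without 1 library, that without H3H113N-SC replicate 3. RPN4 had a log2 fold change between the media of 0.70 in H3H113N (adjusted p = 0.145) and -0.08 in WT (adjusted p = 0.915), the WT sign turning with library totals.

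The copper gene deletions alone gave no called member. In dCtr1 against WT in YPD, where 0.0455% of ORFs were called (0.0303% as higher), 1 member had an unadjusted p under 0.05, as had 3.14% of all ORFs: PUP1, with 161.7 and 206.2 RPKM in dCtr1, against 276.8 and 278.5 RPKM in WT (log2 fold change -0.59, edgeR adjusted p = 1). RPN4 had a log2 fold change of -0.48 there and was not called. In dCcs1 against WT in SC, where 0.0152% of ORFs were called, no member had an unadjusted p under 0.05 (2.18% of all ORFs), and the members' median was -0.02, as was that of all ORFs. DESeq2 called no member in either comparison. The H3H113N effect on RPN4 without the deleted gene minus that with it was 0.67 for CTR1 in YPD and 0.47 for CCS1 in SC, neither called (edgeR adjusted p = 0.9998 for both), and no other member was called in these differences by edgeR or DESeq2, nor did any member have an unadjusted p under 0.05 (2.26% and 2.41% of all ORFs).

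With 75 µM CuSO4 in SC-lys there was 1 library per strain, and no test. RPN4 had 253.8 RPKM in H3H113N dCcs1, against 177.8 RPKM in dCcs1, a ratio of 1.43. Of the members 28 of 33 had a ratio above 1, against 3507 of 6592 tested ORFs, and the median ratio was 1.14, against 1.03 for all ORFs. PRE7 was the only member over 1.5-fold higher (436.4 RPKM in H3H113N dCcs1, against 267.3 RPKM in dCcs1), where 22.5% of all ORFs were, and none was over 1.5-fold lower, where 16.4% were. PRE9 came nearest to that, with 193.2 RPKM in H3H113N dCcs1, against 288.5 RPKM in dCcs1. Growth was very slow in the H3H113N dCcs1 culture and exponential in the dCcs1 culture, per the labels, so that strain and growth cannot be told apart here.

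Within a group, the highest mean of a subunit gene was between 2.92 and 5.94 times the lowest, on the RPKM scale, which corrects for length. RPN9, a lid gene, was lowest in 12 of 14 groups, at 126.7 RPKM in H3H113N in YPD and 133.3 RPKM in WT in YPD, and RPN13 was lowest in the YPEG groups, at 132.4 RPKM in H3H113N and 114.1 RPKM in WT. The highest in H3H113N groups was PRE1 in YPD (536.5 RPKM), PUP3 in YPEG, in SC and without CTR1 (537.6, 555.3 and 519.7 RPKM), PRE7 without CCS1 in SC (581.9 RPKM), and the base gene RPN2 of chromosome IX in SC-lys (346.4 RPKM). RPN14 was far below the subunits, with 30.76 and 23 RPKM in H3H113N in YPD, against 36.49 and 27.56 RPKM in WT, and was called in no comparison.

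Genes around the proteasome were described from lists of its assembly factors (16 genes, RPN14 included), the ubiquitin and Cdc48 system (24) and factors known to act on RPN4 (4). Among the last, PDR3, a drug resistance transcription factor gene on chromosome II, was higher in H3H113N on average (log2 fold change 0.94, SE 0.08, edgeR adjusted p = 2.16e-07), and stayed called with its chromosome centred (0.47, adjusted p = 0.00032). In SC PDR3 averaged 61.6 ± 5.72 RPKM in H3H113N and 26.27 ± 2 RPKM in WT (SD, n = 3 each; edgeR adjusted p = 0.000721). It was also called without CCS1 in SC and in SC-lys, but in neither SC-lys nor SC without CCS1 with its chromosome centred. YAP1 (0.21), HSF1 (0.11) and PDR1 (-0.19) were not called on average (edgeR adjusted p = 0.103, 0.391 and 0.176).

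Genes of the ubiquitin list went in both directions on average, where 18.5% of all ORFs were called higher and 15.2% lower. CDC48 (-0.32) and DSK2 (-0.31) were not called (edgeR adjusted p = 0.0782 and 0.142), while UBC5 (0.42) was called higher (adjusted p = 0.0196). RSP5 on chromosome V was called lower only with chromosomes centred (-0.43, adjusted p = 0.00159). UBI4, the stress-induced polyubiquitin gene on chromosome XII, averaged 0.68 on the log2 scale (SE 0.19, edgeR adjusted p = 0.00916) and 0.74 with chromosomes centred. UBI4 was called in no single setting, with 1.56 in YPD and 0.06 in SC-lys as extremes. NPL4, encoding a Cdc48 cofactor, was higher on average (0.72, edgeR adjusted p = 9.22e-06; 0.24 with its chromosome II centred), and was called in SC, without CCS1 in SC, and in SC-lys, but in none of these with chromosome II centred (edgeR adjusted p = 0.452, 0.764 and 0.15). The assembly factor genes UMP1 and HSM3, both on chromosome II, averaged 0.49 and 0.56 and were called, but had 0.01 and 0.08 with the chromosome centred. SPG5, a proteasome regulator of stationary phase on chromosome XIII, averaged 0.61 (edgeR adjusted p = 0.00119). SCL1 and SEM1, the subunit genes outside the naming rule, had averages of -0.18 and -0.01 and were not called (adjusted p = 0.0982 and 0.971).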

How the data were processed

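The authors deposited, for 6692 ORFs and 28 libraries, raw read counts as whole numbers, and RPKM values, which per the file headers are scaled to exon length and to the total of counted reads; a second table held 5404 ORFs with standard names. Per the submitters' processing notes, TopHat2 2.0.9 and the R64 (sacCer3) build were used; the counting tool is not given in the sources used here, and per the labels strand was not used. No member's ORF overlapped another annotated gene, and all their 50-nt windows were unique in R64. Promoter windows were read from that assembly.

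Counts were tested with edgeR 4.0.16 in R 4.3.3 (glmQLFit, glmQLFTest, TMM) over 26 libraries of 12 groups with 1 mean per group, 14 residual degrees of freedom, and Benjamini-Hochberg adjustment over 6592 ORFs. The SE of a log2 fold change is its size over the square root of F. Copper libraries entered no fit. The scripts were tested on simulated data. Printed RPKM values were computed from the deposited counts with TMM factors applied to the library totals. Alternatives were DESeq2 1.42.0, limma 3.58.1 on log2(RPKM + 1), other scalings, no filter, the compared groups alone, a replicate block, each chromosome centred, and each library left out.

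The members and lists were chosen with earlier results of these data known. All members may be named; members called anywhere are given per library, RPN4 always; of the other lists at most 5 called genes each, and SCL1, SEM1, UMP1, UBI4, YAP1, HSF1, PDR1 and PDR3. With 3 or more pairs needed, replicate numbers were taken to pair H3H113N and WT in SC only. Same-numbered deviations there correlated at 0.476, 0.312 and 0.682. With that pairing as a block, 0 members and 192 ORFs were called in SC, against 105 ORFs without it. The edgeR values for SC in the Results come from the fit without that block.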

Additional observations from a re-analysis of the deposited data

How the results depend on the processing

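The count of called members moved with the analysis in most settings, while RPN4 kept its call on the average in all 7 alternatives and all 26 fits without 1 library. For the average over 6 settings 8 members (of 2225 ORFs called) were called in the edgeR fit, 14 (of 2448) by DESeq2, 18 (of 2806) with a replicate block, 5 (of 2401) with limma and 2 (of 1767) with each chromosome centred, and 7 to 11 with 1 library left out. In YPEG the 2 members called (of 68 ORFs) became 1 (of 54) with median-ratio size factors, 0 (of 33) with library totals, 1 (of 48) with chromosomes centred, 4 (of 284) with a replicate block, 0 (of 34) with limma and 4 (of 176) by DESeq2, and 0 to 0 with 1 library left out. In SC-lys the 2 (of 707) became 0 (of 0) on the compared groups alone, 9 (of 1221) with a replicate block, 1 (of 661) with limma, 4 (of 970) by DESeq2 and 0 to 3 with 1 library left out. In YPEG against SC in H3H113N the 1 called (of 721) became 0 (of 715) with median-ratio factors, 2 (of 738) with chromosomes centred, 0 (of 554) on the compared groups alone, 6 (of 1548) with a replicate block, 3 (of 1098) by DESeq2 and 0 to 3 with 1 library left out. Where 0 members were called, limma called 1 (of 375) in SC, DESeq2 called 1 (of 293) without CTR1, and without CCS1 in SC 2 (of 177) were called with library totals, 1 (of 173) with limma, 1 (of 236) by DESeq2 and 0 to 1 with 1 library left out; in YPEG against SC in WT the block called 1 (of 1231) and DESeq2 1 (of 960). On the compared groups alone 3 members of 491 ORFs were called in YPEG. In YPD no member was called in any of these analyses, while the ORFs called numbered 82, but 195 with the block, 186 by DESeq2 and 0 on the compared groups alone. Centred by chromosome, the average values of PRE7, PRE1, PUP3 and RPN3 turned to -0.09, -0.05, -0.04 and -0.01. Leaving out 1 library, RPN4 in dCcs1 against WT ran from -0.88 to 0.07 (without dCcs1-SC replicate 1), and in YPEG against SC in WT from -0.22 to 0.09 (without WT-SC replicate 3), with 0.12 by library totals and 0.14 by limma. Its H3H113N effect in SC-lys minus that in SC ran from -1.01 to 0.19, and that without CCS1 minus that with it in SC from -0.18 to 1.02, the sign turning without H3H113N-dCcs1-SC replicate 2 in both. Outside the SC pair, replicate numbers are shared by 2 libraries a group without a stated link, with same-number correlations of 0.12 to 0.583 between H3H113N and its parent, and for dCtr1 and WT, whose same-numbered libraries correlated at -0.384, crossing them (added after seeing the data) left 0 members and 3 ORFs called. The average was not run on the compared groups alone, since it uses them all. Leaving out a library of a pair leaves 1, which is then assumed to vary like the others. The shallowest library had 1168159 counts and the deepest 6738018, and the cause of these shifts was not tested.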

Other observations

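The other ORFs with GGTGGCAAA in the promoter window, 45 tested genes that are not members, did not show one direction either. On average over the 6 settings 10 of them were called higher and 4 lower in H3H113N, where 18.5% of all ORFs were called higher and 15.2% lower. Their median log2 fold change was 0.04, against -0.15 for the 26 members with the same element, -0.16 for the 7 members without it and 0 for all ORFs. In YPEG these medians were 0.25 for the other ORFs with the element, 0.31 for members with it and 0.25 for members without it, and in SC-lys -0.12, -0.47 and -0.40. The median of all ORFs was 0 in both settings.

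Chromosome III, which holds no member, stood 1.13 and 1.149 higher on the log2 scale in H3H113N dCtr1 libraries, beside shifts of 0.7 and 0.766 on chromosome V. The dCtr1 libraries, which are part of the reference mean, had shifts of -0.01 to 0.01 on chromosome III.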
